A study of Mus musculus with 14 samples.

Results

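The immediate early genes described here are 38 listed transcription factor and feedback genes of the mouse, out of 24972 genes in the deposited table. They were listed by name, but with earlier results of these data known. RNA levels were followed in ventricular tissue of male C57BL/6N mice after transverse aortic constriction (TAC), a surgical narrowing of the aorta that loads the left ventricle with pressure, or after a sham operation, done at 9 to 10 weeks of age. Echocardiography after 2 weeks picked 30 TAC mice with an ejection fraction of 40 to 60% and 10 sham mice with normal function, and all of them then received AAV2/9, an adeno-associated virus, by tail vein at 1e12 viral genomes in 100 ul. Tissue was taken 8 weeks after surgery, which is 6 weeks after the virus. The groups were TAC+JP2NT (4 libraries), TAC+GFP (4), Sham+JP2NT (3) and Sham+GFP (3), where JP2NT is the N-terminal part of junctophilin-2, a protein of cardiomyocytes that ties the cell membrane to the sarcoplasmic reticulum, and GFP is the control cargo. The series asks whether JP2NT, given once overload has been established, alters hypertrophy and failure. The promoter that drives either cargo is not given in the sources used here, every mouse carried a virus, and nothing in the labels ties a library to its own mouse, so the p-values measure only the spread between these samples.

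Immediate early genes are transcribed within minutes of a stimulus, without new protein synthesis, because the factors that drive them, serum response factor with its partners and CREB, are already present and are switched on by MAP kinases and calcium. Their products include the AP-1 proteins of the Fos and Jun families, zinc finger factors of the Egr and Klf families, the Nr4a nuclear receptors, and proteins that shut the signal down again, such as the dual-specificity phosphatases and proteins that hasten mRNA decay. In the heart they are known for their rapid response to pressure load and to adrenergic agonists, and also for their response to the handling of tissue.

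The libraries held an estimated 8650188 to 14460617 gene-assigned reads. All 10 cardiomyocyte markers were present in every group, with summed normalised values of 736600 to 938600 in TAC+JP2NT, 715500 to 791200 in TAC+GFP, 1077000 to 1095000 in Sham+JP2NT and 1088000 to 1119000 in Sham+GFP. Their mean log2 difference from Sham+GFP, which weighs each gene alike, went the other way. It was 0.05 to 0.31 in TAC+JP2NT, 0.11 to 0.20 in TAC+GFP, 0.02 to 0.03 in Sham+JP2NT and -0.02 to 0.01 in Sham+GFP. The median log2 difference of these genes between TAC and sham was -0.25 with JP2NT and -0.36 with GFP. On the principal component that took 50.8% of the variance of all tested genes, TAC+JP2NT replicate 4 lay at -2.32, the other TAC+JP2NT libraries at 23.38 to 27.43 and the TAC+GFP libraries at 35.17 to 45.83. Sham+JP2NT replicates 1 and 2 lay close to counting noise of each other and were counted as 1 sample in every test. Values below are normalised values on 1 scale for all 14 libraries, and log2 differences are on the log2(value + 1) scale, which understates the change of genes with low values. Changes were called at a limma adjusted p under 0.05 over all 13212 genes tested, two-sided. Since these are bulk samples, fewer cells of a type and less RNA per cell cannot be told apart.

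Of the 38 genes, 36 reached 10 in 3 or more samples and were tested. The untested pair was Fosl1, an AP-1 protein, with values of 0 to 8.70 over the 14 libraries, and Dusp2, a nuclear MAP kinase phosphatase, with values of 0 to 15.5. Egr2 stayed under 10 in all 6 sham libraries. Egr3 reached 10 in fewer than 3 sham samples, with Sham+JP2NT replicates 1 and 2 averaged. Both genes therefore passed this filter through their TAC libraries, and both are counted below among those that rose under both vectors.

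In TAC+JP2NT hearts 14 of the 36 tested genes rose against Sham+JP2NT, where 16.1% of all tested genes rose, and 1 gene, Btg1, fell, where 15.8% of all genes fell (15 called either way, beside 31.9%). In TAC+GFP hearts 21 rose against Sham+GFP, beside 23.3% of all genes, and 1 gene, Zfp36l1, fell, beside 24.8% (22 called either way, beside 48.1%). The median log2 difference of the 36 genes was 0.55 with JP2NT and 0.75 with GFP, while the median over all tested genes was 0.00 with JP2NT and -0.01 with GFP. The genes that rose under both vectors included the stress-responsive factors Atf3, Maff, Cebpb and Cebpd, the factors Egr2, Egr3, Klf4 and Klf6, and the nuclear receptor Nr4a3. The prototype members Fos, Egr1 and Dusp1 did not pass the test under either vector. Leaving out TAC+JP2NT replicate 4, which lay apart on the principal component, gave 14 called genes with JP2NT, beside 37.8% of all genes. Between the vectors, 4 genes fell in TAC+JP2NT against TAC+GFP (Ier3, Gadd45g, Maff and Dusp4), where 3.4% of all tested genes fell, and 0 rose, where 2.75% rose (6.15% called either way).

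**Figure D1:**
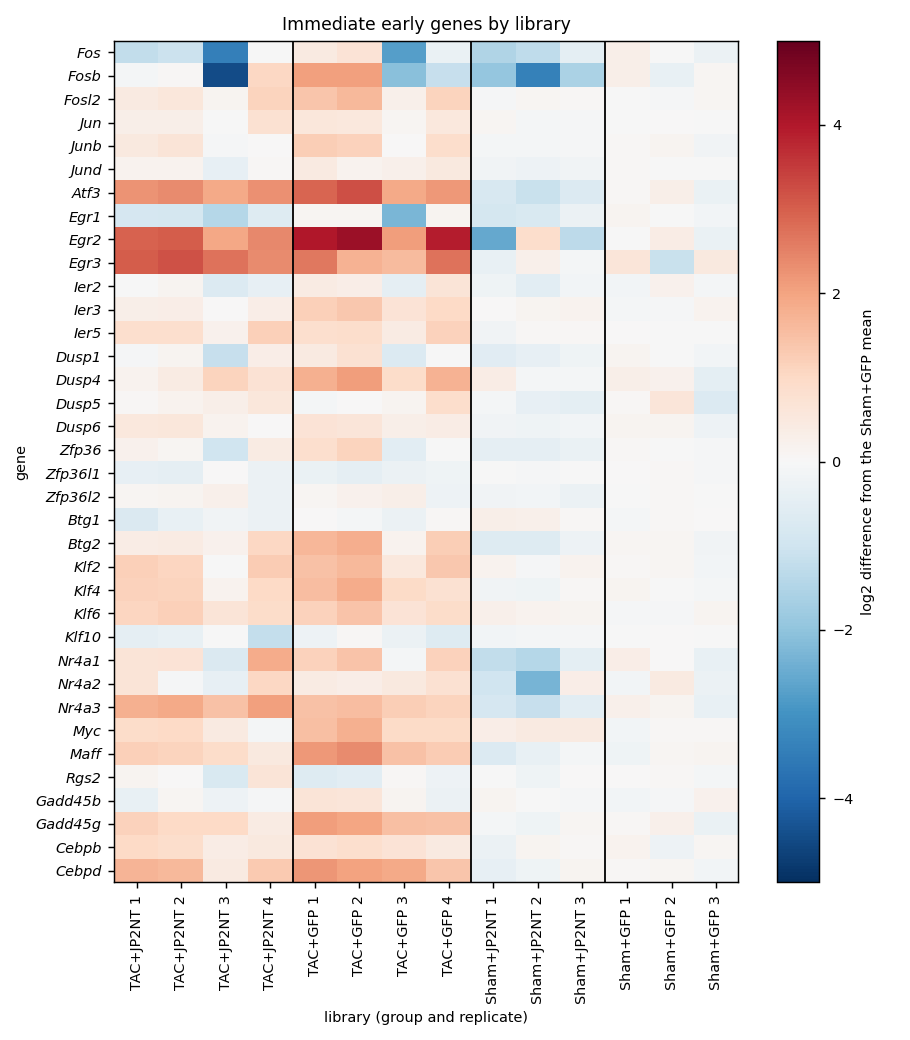
Log2 difference of each of the 36 tested genes (rows) from its mean in Sham+GFP, in every library (columns, grouped by TAC+JP2NT, TAC+GFP, Sham+JP2NT and Sham+GFP). Red is above and blue below the Sham+GFP mean, and the replicate 3 columns of both TAC groups are paler or bluer than their neighbours for many genes, including Fos and Fosb.

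Replicate 3 of each TAC group was low for many of the genes at once. That these libraries stand apart was known when the genes were chosen, so the counts describe this and do not test it. Results below without replicate 3 of both TAC groups follow from that knowledge, and their p-values are descriptions only. TAC+JP2NT replicate 3 was the lowest library of its group for 24 of the 36 genes, beside 25.8% of all tested genes. TAC+GFP replicate 3 was the lowest library of its group for 22 of the 36 genes, beside 30.3% of all tested genes. Against the median of the other 3 libraries, the median log2 difference of the 36 genes was -0.46 for TAC+JP2NT replicate 3 (all genes 0.00) and -0.54 for TAC+GFP replicate 3 (all genes -0.01). At least 2-fold below that median were 9 of the genes in TAC+JP2NT replicate 3, beside 1.88% of all genes, and 12 in TAC+GFP replicate 3, beside 1.7%. In TAC+JP2NT replicate 3, 19 of the 36 genes still lay above all libraries of Sham+JP2NT, 6 within their range and 11 below them all. In TAC+GFP replicate 3, 22 lay above all libraries of Sham+GFP, 5 within their range and 9 below.

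The mean log2 difference from Sham+GFP over the 36 genes was 0.57, 0.61, -0.02 and 0.64 in TAC+JP2NT replicates 1 to 4 and 1.08, 1.15, 0.28 and 0.76 in TAC+GFP replicates 1 to 4. It was -0.39, -0.38 and -0.17 in Sham+JP2NT and 0.06, 0.04 and -0.11 in Sham+GFP. Each TAC library therefore had a mean above all libraries of its own sham group, and replicate 3 came closest to them. The same mean over 9 heat shock genes was 0.36, 0.42, -0.03 and 0.18 in TAC+JP2NT, 0.47, 0.46, -0.41 and 0.48 in TAC+GFP, -0.75, -0.58 and -0.16 in Sham+JP2NT and 0.20, -0.05 and -0.16 in Sham+GFP, and so was also lowest in replicate 3 of both TAC groups. The summed value of 6 neutrophil markers was 145, 118, 27.1 and 25.5 in TAC+JP2NT and 65.3, 68.6, 156 and 38.04 in TAC+GFP, with ranges of 41.3 to 61.5 in Sham+JP2NT and 20.9 to 42.8 in Sham+GFP. Summed erythroid markers ran from 7859 to 18760 in TAC+JP2NT, with the lowest value in replicate 3, and from 15960 to 22190 in TAC+GFP, with the highest value in replicate 3, beside 8635 to 9981 in Sham+JP2NT and 6872 to 8488 in Sham+GFP. Summed atrial markers, 4 genes, ran from 1017 to 10640 in TAC+JP2NT, 1312 to 5003 in TAC+GFP, 3703 to 6056 in Sham+JP2NT and 467 to 3349 in Sham+GFP. Of the marker lists none held a gene at 0 in every library. The part of these in the results was not tested.

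**Figure D2:**
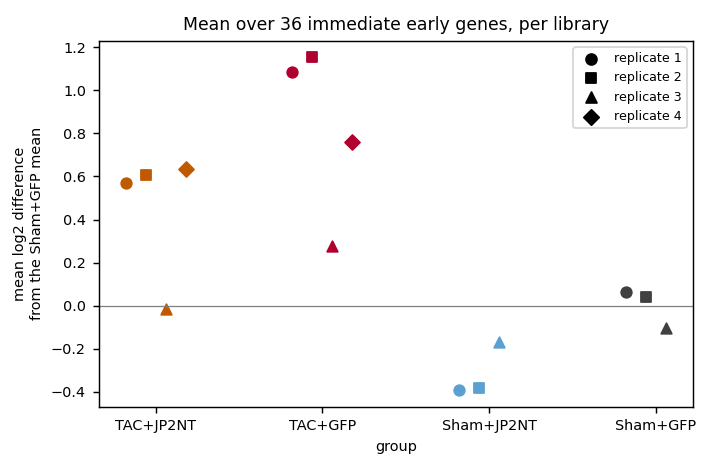
Mean over the 36 tested genes of the log2 difference from the Sham+GFP mean, 1 point per library, in TAC+JP2NT, TAC+GFP, Sham+JP2NT and Sham+GFP; the marker shape gives the replicate. Replicate 3 (triangle) is the lowest point of both TAC groups, at -0.02 in TAC+JP2NT and 0.28 in TAC+GFP.

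AP-1 is a dimer of Fos and Jun proteins that binds DNA and drives proliferation and stress genes. Of its 6 tested members, 0 rose in TAC+JP2NT against Sham+JP2NT, beside 16.1% of all tested genes, and 4 (Fosl2, Jun, Junb and Jund) rose in TAC+GFP against Sham+GFP, beside 23.3%. Without replicate 3 of both TAC groups, 4 rose with JP2NT (Fosb, Fosl2, Jun and Jund), beside 16.3% of all genes, and 4 with GFP (Fosl2, Jun, Junb and Jund), beside 22.9%. Fos, the partner that the family is named for, stood at 76.5, 84.9, 15.9 and 181 in TAC+JP2NT, 249.9, 288, 26.0 and 143 in TAC+GFP, 64.0, 73.8 and 128 in Sham+JP2NT and 223, 181 and 148 in Sham+GFP. Replicate 3 was far below the other libraries of both TAC groups, and the groups overlapped under both vectors. The difference from sham did not pass the test with JP2NT (log2 difference -0.50, 95% interval -2.33 to 1.33, adjusted p = 0.695) or with GFP (log2 difference -0.49, 95% interval -2.11 to 1.12, adjusted p = 0.614). Fosb, a close relative of Fos, had values of 19.9, 22.1, 0 and 45.4 in TAC+JP2NT, 90.9, 91.3, 4.21 and 9.15 in TAC+GFP, 4.88, 1.16 and 6.49 in Sham+JP2NT and 26.1, 16.3 and 22.9 in Sham+GFP. In TAC+GFP replicates 1 and 2 it was above all sham libraries and in replicates 3 and 4 below all Sham+GFP libraries, while in TAC+JP2NT replicate 3 it was listed at 0. Under JP2NT the test was not passed (log2 difference 1.16, SE 1.31, adjusted p = 0.536). Without replicate 3 of both TAC groups the difference was under the threshold (log2 difference 2.36, SE 0.76, adjusted p = 0.0322). That p-value is a description only, since the libraries left out were known to stand apart.

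Fosl2, a Fos-related factor without a strong activation domain, had values of 443, 478, 361 and 702 in TAC+JP2NT, 864, 1017, 394 and 699 in TAC+GFP, 312, 345 and 341 in Sham+JP2NT and 319, 313 and 347 in Sham+GFP. All TAC libraries lay above all sham libraries of the same vector, replicate 3 least so. With JP2NT the difference missed the threshold (log2 difference 0.52, SE 0.29, adjusted p = 0.185), and with GFP it rose 2.15-fold (log2 difference 1.10, SE 0.26, adjusted p = 0.00257). Jun, the main partner of Fos, stood at 719.9, 710.1, 578 and 996 in TAC+JP2NT, 864, 838, 625 and 831 in TAC+GFP, 619.8, 544 and 555 in Sham+JP2NT and 578, 589.5 and 571 in Sham+GFP. TAC+JP2NT replicate 3 lay within the range of Sham+JP2NT, whereas the TAC+GFP libraries were all above Sham+GFP. The difference did not pass the test with JP2NT (log2 difference 0.37, SE 0.16, adjusted p = 0.0967) and passed it with GFP (log2 difference 0.43, SE 0.15, adjusted p = 0.0228). Junb, a Jun protein that can restrain Jun, had values of 210.1, 234, 146 and 153 in TAC+JP2NT, 355, 337, 153 and 279 in TAC+GFP, 142, 140.4 and 146 in Sham+JP2NT and 156, 166 and 133 in Sham+GFP. Replicate 3 lay within the sham range in both TAC groups, and the difference was not called with JP2NT (log2 difference 0.34, SE 0.27, adjusted p = 0.369) and was called with GFP (log2 difference 0.82, SE 0.24, adjusted p = 0.0112). Jund, the Jun protein with the steadiest expression, stood at 507, 515, 337 and 473 in TAC+JP2NT, 626, 509, 547 and 635 in TAC+GFP, 405, 384 and 404 in Sham+JP2NT and 467, 449 and 446 in Sham+GFP. TAC+JP2NT replicate 3 was below all 3 Sham+JP2NT libraries. The JP2NT difference was not called (log2 difference 0.18, SE 0.14, adjusted p = 0.372), and the TAC+GFP libraries rose without overlapping Sham+GFP (log2 difference 0.35, SE 0.13, adjusted p = 0.0343). Exons of 11 of the 38 genes (Fosl1, Jun, Junb, Jund, Dusp1, Dusp5, Zfp36, Zfp36l1, Zfp36l2, Cebpb and Cebpd) overlap a gene on the other strand. How the counting treated strand is not stated in the sources, so reads of those pairs may not be told apart.

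All 4 tested genes of the other basic leucine zipper factors rose under both vectors, beside 16.1% of all genes with JP2NT and 23.3% with GFP. Atf3, a stress-induced repressor of the ATF family (chromosome 1 from 191170296 to 191218039, minus strand, build mm10), had values of 315, 343, 244 and 323 in TAC+JP2NT, 498, 607, 247 and 295 in TAC+GFP, 36.5, 29.8 and 39.8 in Sham+JP2NT and 67.4, 80.3 and 50.8 in Sham+GFP. Every TAC library was far above every sham library. Its mean was 306 ± 42.9 in TAC+JP2NT and 412 ± 169.9 in TAC+GFP (SD, n = 4 each). The rise over sham was 8.17-fold with JP2NT (log2 difference 3.03, SE 0.29, adjusted p = 2.07e-05) and 5.85-fold with GFP (log2 difference 2.55, SE 0.26, adjusted p = 3.27e-06). Maff, a small Maf protein that has no activation domain of its own, stood at 148, 141, 123 and 90.3 in TAC+JP2NT, 293, 338, 182 and 157 in TAC+GFP, 39.7, 49.2 and 61.0 in Sham+JP2NT and 55.4, 69.3 and 70.8 in Sham+GFP. No TAC library overlapped a sham library, and all TAC+JP2NT libraries lay below all TAC+GFP libraries. It rose with JP2NT (log2 difference 1.23, SE 0.28, adjusted p = 0.0045) and with GFP (log2 difference 1.82, SE 0.25, adjusted p = 3.76e-05), and fell in TAC+JP2NT against TAC+GFP (log2 difference -0.90, SE 0.23, adjusted p = 0.0324). Cebpb, a C/EBP factor of growth and inflammation, had values of 136, 126, 87.7 and 95.9 in TAC+JP2NT, 114, 124, 111 and 94.3 in TAC+GFP, 56.4, 75.0 and 71.8 in Sham+JP2NT and 77.9, 56.5 and 73.0 in Sham+GFP. Both TAC groups lay above their sham groups (log2 difference 0.67, SE 0.19, adjusted p = 0.016 with JP2NT, log2 difference 0.68, SE 0.17, adjusted p = 0.00387 with GFP). Cebpd, the C/EBP factor of the acute phase response, stood at 223, 213, 93.2 and 172 in TAC+JP2NT, 319, 283, 255 and 181 in TAC+GFP, 51.5, 58.4 and 75.0 in Sham+JP2NT and 71.5, 72.7 and 62.2 in Sham+GFP. TAC+JP2NT replicate 3 came closest to sham without overlapping it, and the rise was called with JP2NT (log2 difference 1.36, SE 0.29, adjusted p = 0.00327) and GFP (log2 difference 1.87, SE 0.26, adjusted p = 4.34e-05).

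**Figure D3:**
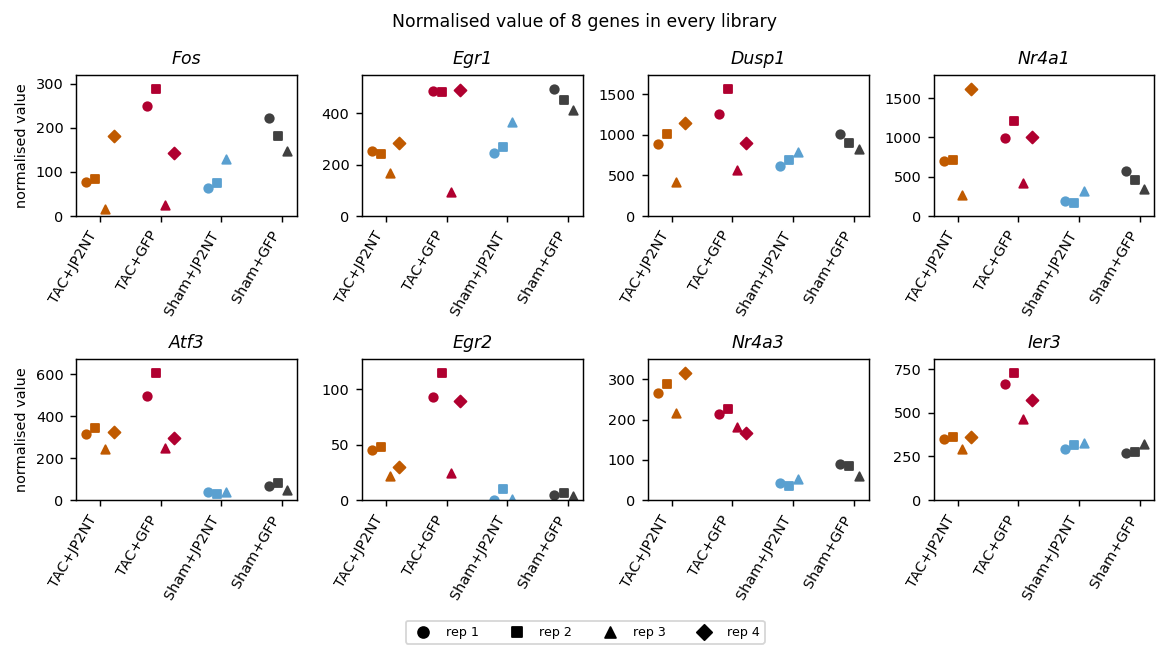
Normalised value (linear axis) of Fos, Egr1, Dusp1, Nr4a1, Atf3, Egr2, Nr4a3 and Ier3 in every library of TAC+JP2NT, TAC+GFP, Sham+JP2NT and Sham+GFP; the marker shape gives the replicate. Atf3, Egr2 and Nr4a3 separate both TAC groups from sham, Fos and Egr1 do not, and Ier3 separates TAC+GFP from the other 3 groups.

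Promoters were searched for motifs of factors known to switch immediate early genes on. RefSeq promoter windows were at hand for 29 of the 38 genes (35 windows of 250 bases before the start, build GRCm38.p6). Fosl1, Egr1, Egr3, Ier2, Dusp4, Zfp36l2, Klf10, Myc and Cebpd were not searched, so the shares below leave them out. The CRE (TGACGTCA, which CREB and ATF factors bind) was in 3 of the 35 windows (8.57%), of Dusp1, Btg2 and Maff, beside 1.55% of all 32851 promoter windows. The CArG box, which serum response factor binds, was in 6 windows (17.1%), from Egr2, Dusp5 and Zfp36, beside 1.47% of all windows. Of these 6 windows, 4 belong to Egr2, and 3 of the 4 overlap and hold the same site, so by gene the CArG box was found for 3 of 29 (10.3%), as was the CRE. The AP-1 motif (TGANTCA) was in 1 window (2.86%), of Zfp36l1, beside 6.75%, and the EGR motif (GCGTGGGCG) in 1, of Maff, beside 0.536%. TATAAA, the core of the TATA box, was in 6 windows (17.1%), of Fos, Zfp36l1, Btg1, Nr4a2, Gadd45b and Gadd45g, beside 12.4%. Both strands were searched, the letters of CRE and AP-1 cannot form 1 match together, and a match is a description and not a site. The 4 windows below show genes with different results, with the motifs in capitals. They are the TATA box of Fos, which did not pass the test, the CArG box of Egr2 and the CRE of Btg2, which rose in TAC hearts, and the CRE and EGR motif of Maff, which rose and differed between the vectors. The other genes with a CRE (Dusp1) or a CArG box (Dusp5 and Zfp36) passed against sham under neither vector. Of the other genes with TATAAA, Gadd45g rose under both vectors, Btg1 fell with JP2NT and Zfp36l1 fell with GFP. Nr4a2 and Gadd45b, also with TATAAA, passed under neither. A motif further than 250 bases before the start, in Fos or another gene, would not have been found. Only exact matches were counted, so a variant of a motif inside a window, such as tgacgtag in that of Fos, was not marked either. A gene without a mark may therefore still hold a site for these factors.
Fos, chr12:85473640-85473889, plus strand: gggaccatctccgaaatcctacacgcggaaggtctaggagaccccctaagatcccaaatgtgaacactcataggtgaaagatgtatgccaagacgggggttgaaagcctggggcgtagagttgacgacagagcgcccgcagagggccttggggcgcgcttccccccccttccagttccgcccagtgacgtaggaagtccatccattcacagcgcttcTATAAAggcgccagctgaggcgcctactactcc
Egr2, chr10:67537619-67537868, plus strand: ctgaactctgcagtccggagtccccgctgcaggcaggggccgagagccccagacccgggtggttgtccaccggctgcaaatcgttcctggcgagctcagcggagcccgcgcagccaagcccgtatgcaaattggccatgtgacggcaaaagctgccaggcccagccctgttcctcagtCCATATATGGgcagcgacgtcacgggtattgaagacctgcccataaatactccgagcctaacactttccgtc
Btg2, chr1:134079156-134079405, minus strand: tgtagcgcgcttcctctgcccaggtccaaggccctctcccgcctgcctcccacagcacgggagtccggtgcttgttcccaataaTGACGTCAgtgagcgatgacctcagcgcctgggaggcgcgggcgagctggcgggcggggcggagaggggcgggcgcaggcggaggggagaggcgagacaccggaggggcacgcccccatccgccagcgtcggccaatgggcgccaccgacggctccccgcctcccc
Maff, chr15:79347270-79347519, plus strand: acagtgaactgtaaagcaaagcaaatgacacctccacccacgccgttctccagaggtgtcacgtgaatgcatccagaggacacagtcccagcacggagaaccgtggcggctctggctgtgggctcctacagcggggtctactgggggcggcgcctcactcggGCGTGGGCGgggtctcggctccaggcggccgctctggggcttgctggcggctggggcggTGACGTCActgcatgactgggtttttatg
The TATA box of Fos lies at -33 to -28 before the start, the CArG box of Egr2 at -72 to -63, the CRE of Btg2 at -166 to -159, the EGR motif of Maff at -88 to -80 and its CRE at -29 to -22. The Egr2 and Maff windows lie before internal starts, inside the GENCODE spans of their genes, and the Fos and Btg2 windows lie outside theirs.

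Zinc finger factors rose in 4 of 7 cases with JP2NT, beside 16.1% of all genes, and in 5 of 7 with GFP, beside 23.3%. Both counts include Egr2 and Egr3, which passed the filter only through their TAC libraries. Egr2, a factor of myelination and immune cells (chromosome 10 from 67535475 to 67542188, plus strand, build mm10), had values of 45.4, 47.7, 21.7 and 30.1 in TAC+JP2NT, 93.5, 115, 24.1 and 89.2 in TAC+GFP, 0, 9.80 and 1.42 in Sham+JP2NT and 4.77, 6.67 and 3.70 in Sham+GFP. Every TAC library was above every sham library, and 1 Sham+JP2NT library was listed at 0. It rose with JP2NT (log2 difference 3.23, SE 0.54, adjusted p = 0.000707) and with GFP (log2 difference 3.57, SE 0.48, adjusted p = 3.67e-05). Egr3, a relative of Egr2 with a similar binding site, stood at 77.4, 86.4, 61.1 and 47.8 in TAC+JP2NT, 58.2, 30.6, 27.7 and 61.1 in TAC+GFP, 6.27, 10.2 and 7.99 in Sham+JP2NT and 13.6, 3.43 and 12.2 in Sham+GFP. It rose with JP2NT (log2 difference 2.89, SE 0.45, adjusted p = 0.0004) and with GFP (log2 difference 2.17, SE 0.40, adjusted p = 0.000439), again without overlap. Klf2, a factor that answers to blood flow in endothelium, had values of 562, 522, 245 and 605 in TAC+JP2NT, 678, 773, 357 and 635 in TAC+GFP, 281, 241 and 280.2 in Sham+JP2NT and 256, 263 and 226 in Sham+GFP. Only TAC+JP2NT replicate 3 of the TAC libraries lay within the range of its sham group, and the difference missed the threshold with JP2NT (log2 difference 0.75, SE 0.31, adjusted p = 0.0804) and passed it with GFP (log2 difference 1.24, SE 0.28, adjusted p = 0.00199). Klf4, a factor of stress and cell fate, stood at 704, 689.8, 362 and 634 in TAC+JP2NT, 938, 1168, 614 and 545 in TAC+GFP, 285, 275 and 336 in Sham+JP2NT and 349, 313 and 295 in Sham+GFP. TAC+JP2NT replicate 3 was nearest to sham, and the rise was called with JP2NT (log2 difference 0.91, SE 0.28, adjusted p = 0.0238) and with GFP (log2 difference 1.29, SE 0.25, adjusted p = 0.000686). Klf6, a factor of injury responses, had values of 1160.1, 1236, 846 and 1027 in TAC+JP2NT, 1209, 1486, 881 and 1038 in TAC+GFP, 646, 618 and 598 in Sham+JP2NT and 521, 527 and 597 in Sham+GFP. No library overlapped between TAC and sham (log2 difference 0.78, SE 0.17, adjusted p = 0.00382 with JP2NT, log2 difference 1.05, SE 0.15, adjusted p = 6.46e-05 with GFP). Egr1, the prototype of this family, is outside the rule for genes given in every library and is added here after its values were seen. It stood at 254, 243, 167 and 284 in TAC+JP2NT, 487, 480.5, 92.7 and 489.8 in TAC+GFP, 244, 268 and 367 in Sham+JP2NT and 495, 449 and 411 in Sham+GFP. Replicate 3 of TAC+GFP was far below every other TAC+GFP library. Neither TAC difference passed the test (log2 difference -0.40, SE 0.50, adjusted p = 0.58 with JP2NT, log2 difference -0.49, SE 0.44, adjusted p = 0.378 with GFP).

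Nr4a receptors are orphan nuclear receptors whose activity is set by their amount. Nr4a1, also called Nur77, had values of 703, 716, 271 and 1620.5 in TAC+JP2NT, 996, 1209, 427 and 1012 in TAC+GFP, 190.3, 166 and 323 in Sham+JP2NT and 568, 463 and 349 in Sham+GFP. Replicate 3 lay within the sham range in both TAC groups, and TAC+JP2NT replicate 4 was the highest library. It rose with JP2NT (log2 difference 1.51, SE 0.52, adjusted p = 0.0394) and missed the threshold with GFP (log2 difference 0.91, SE 0.46, adjusted p = 0.117). The call with JP2NT was lost in 9 of 27 alternative analyses, and the difference between the effects was not called (log2 difference 0.60, SE 0.70, adjusted p = 0.797). Nr4a2, also called Nurr1, had low values of 24.9, 14.8, 11.5 and 33.4 in TAC+JP2NT, 21.3, 19.96, 22.1 and 27.3 in TAC+GFP, 7.35, 2.29 and 19.9 in Sham+JP2NT and 14.1, 21.5 and 12.6 in Sham+GFP. Its groups overlapped, and neither difference passed (log2 difference 0.90, SE 0.47, adjusted p = 0.165 with JP2NT, log2 difference 0.50, SE 0.42, adjusted p = 0.346 with GFP). Nr4a3, also called Nor1, stood at 265, 288, 215 and 316 in TAC+JP2NT, 215, 226, 183 and 167 in TAC+GFP, 41.9, 34.2 and 53.2 in Sham+JP2NT and 90.4, 83.9 and 58.9 in Sham+GFP. All TAC libraries were above all sham libraries. It rose 5.86-fold with JP2NT (log2 difference 2.55, SE 0.20, adjusted p = 3.44e-06) and 2.55-fold with GFP (log2 difference 1.35, SE 0.18, adjusted p = 2.93e-05). The difference between these effects was not called (log2 difference 1.20, SE 0.27, adjusted p = 0.109). Nor was TAC+JP2NT against TAC+GFP (log2 difference 0.45, SE 0.16, adjusted p = 0.1125). Myc, a growth factor-responsive transcription factor, had values of 80.4, 86.2, 57.9 and 39.4 in TAC+JP2NT, 122, 149, 82.5 and 84.1 in TAC+GFP, 53.0, 58.1 and 58.3 in Sham+JP2NT and 38.9, 44.5 and 43.7 in Sham+GFP. TAC+JP2NT replicate 4 was below all Sham+JP2NT libraries, while TAC+GFP lay above Sham+GFP throughout. It did not pass with JP2NT (log2 difference 0.15, SE 0.29, adjusted p = 0.734) and rose with GFP (log2 difference 1.31, SE 0.25, adjusted p = 0.000699).

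Of 10 tested feedback genes, 2 rose and 1 fell with JP2NT (16.1% of all genes rose and 15.8% fell), and 3 rose and 1 fell with GFP (23.3% rose and 24.8% fell), so the shares that rose were near those of all genes. Dusp4, a nuclear phosphatase that inactivates MAP kinases, had values of 19.6, 23.1, 38.5 and 29.5 in TAC+JP2NT, 62.2, 77.7, 33.6 and 60.4 in TAC+GFP, 22.9, 16.0 and 16.0 in Sham+JP2NT and 21.3, 20.1 and 11.996 in Sham+GFP. The TAC+JP2NT values overlapped Sham+JP2NT, and TAC+GFP lay above all Sham+GFP libraries. It missed the threshold with JP2NT (log2 difference 0.58, SE 0.34, adjusted p = 0.218), rose with GFP (log2 difference 1.64, SE 0.30, adjusted p = 0.000476), and fell in TAC+JP2NT against TAC+GFP (log2 difference -1.04, SE 0.28, adjusted p = 0.0411), a call lost in 14 of 27 alternative analyses. Dusp5, a nuclear phosphatase of ERK, stood at 25.0, 27.3, 30.1 and 36.6 in TAC+JP2NT, 22.6, 24.6, 26.5 and 45.4 in TAC+GFP, 22.8, 18.2 and 17.2 in Sham+JP2NT and 25.6, 37.7 and 14.6 in Sham+GFP. The TAC+JP2NT libraries were above all Sham+JP2NT libraries but the test was not passed (log2 difference 0.62, SE 0.34, adjusted p = 0.184). Dusp6, a cytoplasmic phosphatase of ERK, had values of 307, 315, 240.2 and 214 in TAC+JP2NT, 339.7, 322, 259.9 and 278 in TAC+GFP, 190.5, 183 and 196 in Sham+JP2NT and 234, 232 and 179.6 in Sham+GFP. It rose without overlap under JP2NT (log2 difference 0.47, SE 0.16, adjusted p = 0.0404) and GFP (log2 difference 0.48, SE 0.14, adjusted p = 0.0131). Zfp36l1, which binds AU-rich elements and hastens mRNA decay, stood at 568, 549, 767 and 622 in TAC+JP2NT, 599, 554, 616 and 647 in TAC+GFP, 741, 732 and 754 in Sham+JP2NT and 761, 793 and 719.9 in Sham+GFP. TAC+JP2NT replicate 3 lay above all Sham+JP2NT libraries and the difference was not called (log2 difference -0.26, SE 0.11, adjusted p = 0.0887), and it fell in TAC+GFP (log2 difference -0.33, SE 0.10, adjusted p = 0.0133). Btg1, an antiproliferative protein, had values of 227, 287, 331 and 303 in TAC+JP2NT, 376, 347, 300.0 and 385 in TAC+GFP, 461, 451 and 384 in Sham+JP2NT and 351, 393 and 375 in Sham+GFP. TAC+JP2NT lay below Sham+JP2NT throughout and fell (log2 difference -0.56, SE 0.14, adjusted p = 0.00794), and the GFP groups overlapped (log2 difference -0.09, SE 0.12, adjusted p = 0.575). Btg2, its relative and a target of p53, stood at 758, 779.9, 673 and 1200.3 in TAC+JP2NT, 1825, 2075, 669 and 1391 in TAC+GFP, 374, 376 and 488 in Sham+JP2NT and 626, 626 and 511 in Sham+GFP. Every TAC library lay above its sham group. It rose with JP2NT (log2 difference 0.96, SE 0.33, adjusted p = 0.0407) and with GFP (log2 difference 1.23, SE 0.29, adjusted p = 0.00329), the JP2NT call being lost in 10 of 27 alternative analyses. Without replicate 3 of both TAC groups it also fell in TAC+JP2NT against TAC+GFP (log2 difference -0.96, SE 0.18, adjusted p = 0.00665). This p-value is a description only, since the libraries left out were known to stand apart.

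Ier3, a stress protein that sustains ERK signalling and affects cell survival (chromosome 17 from 35821684 to 35822923, plus strand, build mm10), had values of 351, 361, 292 and 359 in TAC+JP2NT, 666, 729, 467 and 572 in TAC+GFP, 295, 314 and 328 in Sham+JP2NT and 268, 278 and 323 in Sham+GFP. TAC+JP2NT overlapped Sham+JP2NT, and every TAC+GFP library was above all others. Its mean was 341 ± 33.0 in TAC+JP2NT and 609 ± 114 in TAC+GFP (SD, n = 4 each). It fell in TAC+JP2NT against TAC+GFP (log2 difference -0.82, SE 0.12, adjusted p = 0.00269), did not pass against sham under JP2NT (log2 difference 0.10, SE 0.15, adjusted p = 0.635) and rose against sham under GFP (log2 difference 1.05, SE 0.13, adjusted p = 2e-05). The difference between these TAC effects did not pass over all genes (log2 difference -0.95, SE 0.20, adjusted p = 0.0959). It was under the threshold without replicate 3 of both TAC groups (log2 difference -0.998, SE 0.15, adjusted p = 0.00634). Those libraries were known to stand apart, so the second p-value is a description only. Ier5, which acts with heat shock factor, stood at 533, 528, 342 and 686 in TAC+JP2NT, 539, 549, 395 and 670.0 in TAC+GFP, 263, 313 and 306 in Sham+JP2NT and 299.8, 297 and 295 in Sham+GFP. It rose without overlap under JP2NT (log2 difference 0.77, SE 0.21, adjusted p = 0.014) and under GFP (log2 difference 0.83, SE 0.19, adjusted p = 0.00231). Gadd45g, a stress protein of growth arrest, had values of 154, 141, 141 and 92.5 in TAC+JP2NT, 301, 275, 197 and 194 in TAC+GFP, 64.3, 60.5 and 74.7 in Sham+JP2NT and 72.4, 83.0 and 55.7 in Sham+GFP. TAC+JP2NT lay between Sham+JP2NT and TAC+GFP with no overlap. It rose with JP2NT (log2 difference 0.92, SE 0.23, adjusted p = 0.00786) and with GFP (log2 difference 1.76, SE 0.20, adjusted p = 9.99e-06) and fell in TAC+JP2NT against TAC+GFP (log2 difference -0.86, SE 0.19, adjusted p = 0.0163).

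The other 8 tested genes (Egr1, Klf10, Dusp1, Zfp36, Zfp36l2, Rgs2, Ier2 and Gadd45b) had log2 differences of -0.49 to 0.37 in the TAC comparisons and between the vectors in TAC hearts, and passed in none of them. Klf10 is a repressor that answers to TGF-beta, Dusp1 a phosphatase of MAP kinases, Zfp36 and Zfp36l2 mRNA decay factors, Rgs2 a brake on Gq signalling, Ier2 a nuclear protein, and Gadd45b a stress protein. Without replicate 3 of both TAC groups, Ier2 (log2 difference 0.45, SE 0.15, adjusted p = 0.0227) and Zfp36 (log2 difference 0.64, SE 0.21, adjusted p = 0.0223) rose and Rgs2 fell (log2 difference -0.49, SE 0.15, adjusted p = 0.0151) in TAC+GFP against Sham+GFP. These p-values too are descriptions only.

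**Figure D4:**
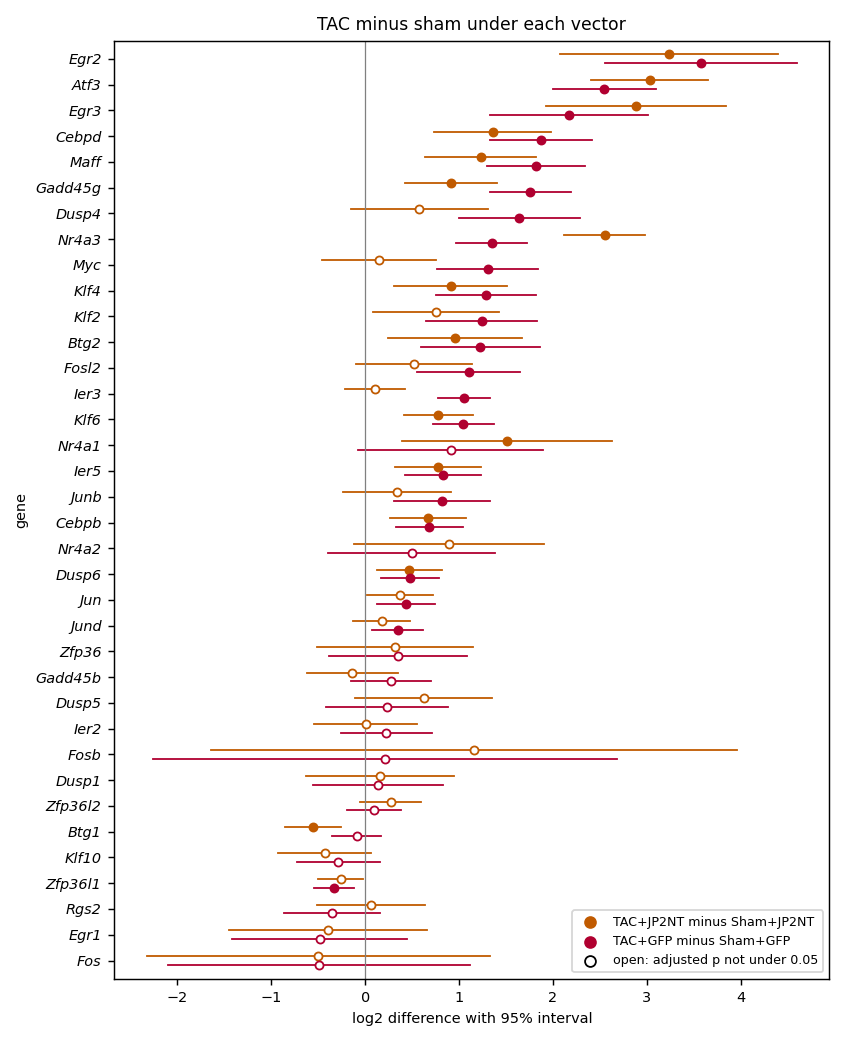
Log2 difference TAC minus sham with its 95% interval for the 36 tested genes, under JP2NT (orange) and GFP (red), ordered by the GFP difference; filled points passed the limma test over all genes. There are 14 filled points above 0 under JP2NT and 21 under GFP, with Egr2 and Atf3 at the top.

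Under both vectors 13 genes rose, which is 92.9% of the JP2NT list and 61.9% of the GFP list. TAC and sham libraries did not overlap for 15 genes higher with JP2NT, beside 21.2% of all genes, and for 20 genes higher with GFP, beside 25.3%. The 13, 15 and 20 genes include Egr2 and Egr3, which passed the filter only through their TAC libraries. For 1 gene each the TAC and sham libraries did not overlap with TAC lower, beside 22.3% of all genes with JP2NT and 27.8% with GFP. Without replicate 3 of both TAC groups the counts with TAC higher were 24 with JP2NT (24% of all genes) and 23 with GFP (28.3%), and with TAC lower 3 with JP2NT (24.7%) and 2 with GFP (30.6%). With replicate 3 of both TAC groups left out, 19 rose with JP2NT, where 16.3% of all tested genes rose, and 24 rose with GFP, where 22.9% did. The additional risers with JP2NT were Fosb, Jun, Jund, Fosl2 and Klf2, and with GFP they were Ier2, Nr4a1 and Zfp36. In limma no gene passed the test of the difference between the 2 TAC effects in all libraries (0 of 36, beside 0.0757% of all tested genes, 0.0378% in each direction; 6 at an unadjusted p under 0.05, beside 11.4%), so no gene is shown to respond to TAC under 1 vector only.

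In TAC hearts 31 of the 36 genes had a lower mean with JP2NT than with GFP, and the median difference was -0.36, where over all genes it was 0.00. Of all tested genes 49.8% had a lower mean. The summed value of 6 pericyte markers ran from 11180 to 13790 in TAC+JP2NT and from 8637 to 10490 in TAC+GFP, and 3 of the 6 rose in TAC+JP2NT against TAC+GFP. That of 5 smooth muscle markers ran from 27130 to 32000 in TAC+JP2NT and from 35370 to 46760 in TAC+GFP, and 1 of the 5 fell. Neither sum overlapped between the TAC groups. The mean log2 difference from Sham+GFP, which weighs each gene alike, did overlap for smooth muscle. It was -0.74, -0.32, -0.15 and -0.17 in TAC+JP2NT and -0.21, -0.19, -0.55 and -0.53 in TAC+GFP. For pericytes this mean did not overlap. The part of these markers in the result was not tested. The decrease passed the test for Ier3, Gadd45g, Maff and Dusp4 only, and for the first 3 the groups did not overlap, beside 5.41% of all genes lower without overlap; for 0 genes TAC+JP2NT was higher without overlap, beside 5.25%. Without replicate 3 of both TAC groups 11 genes were lower without overlap, beside 13.2%, and 2 higher (Nr4a3 and Rgs2), beside 11.9%. Without TAC+GFP replicate 3 the decrease was called for 10 genes, beside 3.99% of all genes. It was called for 1 gene without TAC+GFP replicate 1 (1.48% of all genes) or replicate 2 (1.24%), and for 2 genes without TAC+JP2NT replicate 2 (1.98%) or replicate 4 (3.06%). With replicate 3 of both TAC groups left out, 11 fell, beside 5.43% of all tested genes, and 1, Rgs2, rose, beside 3.92%. Over all genes the count called without those libraries was 1226, against 812 with them. The 11 were Btg1, Btg2, Dusp4, Egr1, Egr2, Fosl2, Gadd45g, Ier2, Ier3, Junb and Maff. Their log2 differences ran from -0.45 (adjusted p = 0.0251) for Btg1 to -1.45 (adjusted p = 0.00473) for Dusp4. Egr1 then had -0.90 (adjusted p = 0.000796), with its 3 remaining TAC+JP2NT libraries below its 3 remaining TAC+GFP libraries. The libraries left out were already known to stand apart, so these p-values are descriptions only.

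**Figure D5:**
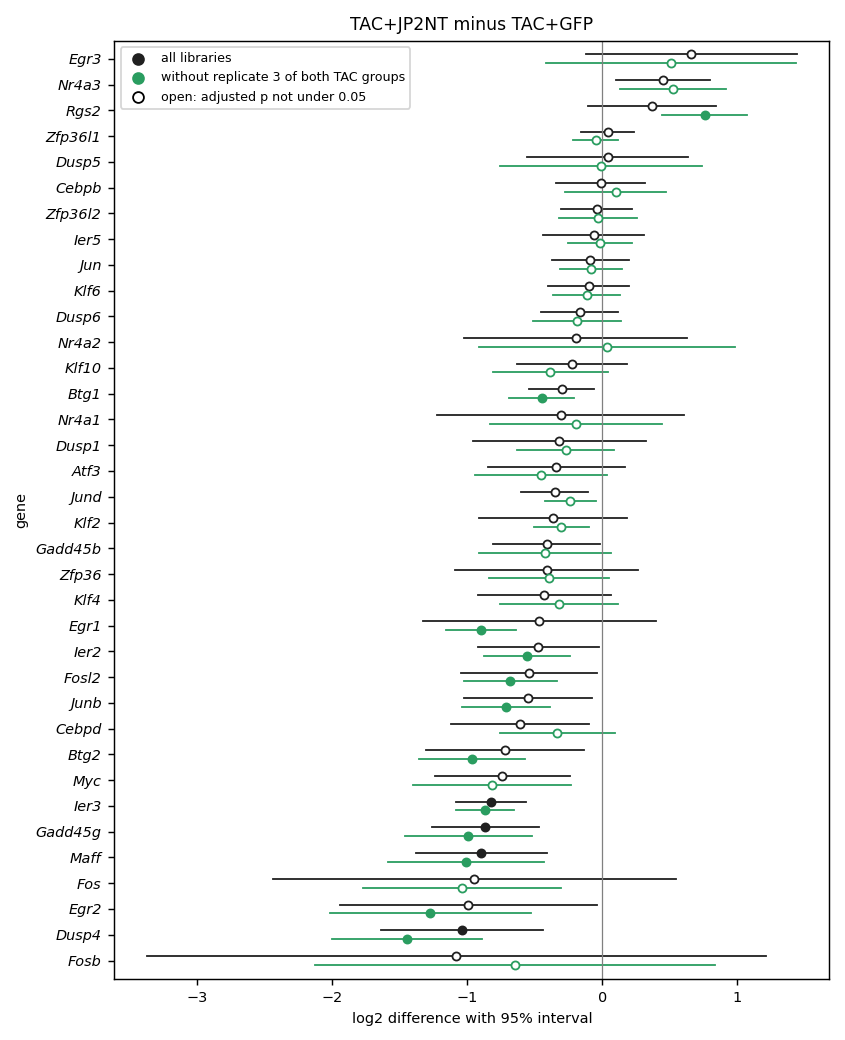
Log2 difference TAC+JP2NT minus TAC+GFP with its 95% interval for the 36 tested genes, with all libraries (black) and without replicate 3 of both TAC groups (green); filled points passed the limma test over all genes. Most points lie left of 0, 4 of them filled with all libraries and 11 filled below 0 without replicate 3.

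In sham hearts, 0 of 36 genes differed between JP2NT and GFP in the limma test (beside 0% of all tested genes; 2 of the genes and 581 of all genes, 4.4%, had an unadjusted p under 0.05). Of them, 28 of the genes had a lower mean with JP2NT, beside 53.1% of all genes, and for 13 of them the 3 Sham+JP2NT libraries lay below all 3 Sham+GFP libraries, beside 13.3% of all genes. They included Fos, Fosb, Atf3, Egr1, Dusp1, Nr4a1 and Nr4a3. Atf3, for example, had values of 36.5, 29.8 and 39.8 in Sham+JP2NT and 67.4, 80.3 and 50.8 in Sham+GFP. Klf6 and Myc lay above Sham+GFP throughout, beside 8.55% of all genes. Sham+JP2NT replicates 1 and 2 entered the test as 1 sample. The counts of groups that did not overlap took them as separate libraries, for these genes and for all genes alike.

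Genes near the immediate early genes in the pathway were counted from other lists. Each count stands beside 16.1% of all tested genes that rose and 15.8% that fell with JP2NT, and 23.3% that rose and 24.8% that fell with GFP. Of 30 tested upstream kinases and transcription factors, which carry the signal to these promoters, 4 rose and 6 fell in TAC+JP2NT against Sham+JP2NT and 7 rose and 10 fell in TAC+GFP against Sham+GFP. The largest with GFP were Mapk14, the kinase p38 alpha, with a log2 difference of -0.94 (adjusted p = 2.65e-06), and Rps6ka3, an ERK-activated kinase, with 0.91 (adjusted p = 5.32e-05). Of 19 further feedback regulators, 5 rose and 2 fell with JP2NT and 4 rose and 4 fell with GFP, with Errfi1, an EGF receptor inhibitor, at 0.99 (adjusted p = 0.0475) with JP2NT and 1.22 (adjusted p = 0.00566) with GFP. Of 37 other rapidly induced genes, 15 rose and 2 fell with JP2NT and 24 rose and 3 fell with GFP, with median log2 differences of 0.62 with JP2NT and 0.89 with GFP. Thbs1, an extracellular matrix protein, had log2 differences of 2.96 (adjusted p = 0.00091) with JP2NT and 3.40 (adjusted p = 3.67e-05) with GFP. Ctgf, a matricellular growth factor, had 2.19 (adjusted p = 3.54e-05) with JP2NT and 3.75 (adjusted p = 3.49e-08) with GFP, and fell in TAC+JP2NT against TAC+GFP with a log2 difference of -1.47 (adjusted p = 0.00114), where 6 of the 37 fell, beside 3.4% of all genes, and 1 rose, beside 2.75%. Of 7 AP-1 and ATF relatives, 1 rose with JP2NT and 2 rose and 1 fell with GFP. Of 9 heat shock genes, which answer to protein damage, 3 rose and 1 fell with JP2NT and 2 rose and 2 fell with GFP. Of 15 clock genes, 1 rose and 2 fell with JP2NT and 4 rose and 5 fell with GFP. Hlf, an output factor of the clock, had log2 differences of 1.11 (adjusted p = 0.034) in TAC+JP2NT against TAC+GFP and -1.50 (adjusted p = 0.00111) in TAC+GFP against Sham+GFP.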

How the data were processed

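Ventricular polyadenylated RNA gave 14 stranded paired-end libraries in 4 groups. The deposited values are a normalised signal derived from gene counts; per the submitters' processing notes FastQC 1.0.0, STAR 2.6.1a and Salmon were used with build mm10, while no source names the annotation, the strand setting or the scaling software. The deposited values show, by equal median-of-ratios factors within each set, that the authors scaled the 7 JP2NT and the 7 GFP libraries apart. They were not whole reads: taking the commonest low value of a library as 1 read, only 1.11% to 2.85% of values lay within 0.001 of a whole number, so count models were not used. The values were rescaled jointly by unweighted trimmed means of M-values (30% of ratios and 5% of levels trimmed), 1 was added and log2 taken. limma-trend (limma 3.58.1, R 4.3.3) was fitted with 1 mean per group and 1 spread to 13 samples, leaving 9 residual degrees of freedom; p-values are two-sided, Benjamini-Hochberg adjusted over the 13212 genes that reached 10 in 3 or more samples. Comparisons (5) set TAC against sham within a vector and JP2NT against GFP within a surgery, and tested their interaction. Sham+JP2NT replicates 1 and 2 were averaged because their variance was 1.33 times counting noise over genes with at least 50 reads, where 17 other pairs had 2.36 to 26.7.

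The median SD of log2 values of the immediate early genes was 0.363 (TAC+JP2NT), 0.443 (TAC+GFP), 0.132 (Sham+JP2NT) and 0.156 (Sham+GFP), so 1 shared spread is below that of TAC and above that of sham hearts. The members and lists were chosen with earlier results of these data known, including that replicate 3 of both TAC groups stands apart. Genes were given in every library when called in any comparison or at least 1.5-fold different in a TAC or vector comparison; up to 4 called genes per other list were eligible to be named. Marker lists were used as descriptions only. In 26 cases gene names had been turned into dates. Of 7 mitochondrially encoded genes listed as a check of RNA composition, 0 were in the deposited table under those names, so that check could not be made. Promoters and positions came from RefSeq and GENCODE. Alternatives changed the scaling, the pseudocount, the filter, the averaging, the replicate block, the spread and the libraries used.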

Additional observations from a re-analysis of the deposited data

Results flagged for a closer look

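Within groups of 4 libraries, 6 values stood far from the others of their group, judged by the gap to the nearest library over the group's range (Dixon's ratio); chance alone gives about 1 in 20 groups. In TAC+JP2NT, replicate 3 was the lowest library for Ier3 (ratio 0.865), Klf2 (0.836) and Klf4 (0.841). In TAC+GFP, replicate 3 was the lowest for Jun (0.881), Egr1 (0.988) and Egr2 (0.836). That is 3 of 36 genes (8.33%) in each TAC group, where 5.96% of all tested genes in TAC+JP2NT and 6% in TAC+GFP had such a library at either end. For Egr1 replicate 3 of TAC+GFP had a value of 92.7 against 480.5 to 489.8 in the other 3. That replicate 3 of both TAC groups stands apart was known when the genes were chosen. The ratios are therefore descriptions, and the 1 in 20 above is not a test of them.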

How the results depend on the processing

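Across 27 alternatives, 9 of the 15 genes called in TAC against sham with JP2NT (not Btg2, Cebpb, Dusp6, Ier5, Klf4 and Nr4a1), 17 of the 22 called with GFP (not Dusp6, Jun, Junb, Jund and Zfp36l1) and 1 of the 4 called between the vectors in TAC hearts, Ier3, were called in all. Leaving out 1 library at a time gave 10 to 19 genes in TAC+JP2NT against Sham+JP2NT, 18 to 23 in TAC+GFP against Sham+GFP, 1 to 10 in TAC+JP2NT against TAC+GFP and 0 to 1 for the interaction. The vector comparison in TAC hearts gave 7 genes with the values as deposited, 2 with a spread per group, 1 with only the compared groups, 12 without replicate 3 of both TAC groups and 1 with replicates 1 and 2 averaged in each TAC group, an alternative chosen after seeing the data. The interaction gave 2 genes with 14 separate libraries, 1 with a spread per group and 2 without replicate 3 of both TAC groups (Ier3 and Nr4a3). The mean over the genes in Sham+JP2NT replicate 2 was -0.23 with a filter of at least 50, in place of -0.38. The Fosb difference between the vectors in TAC hearts was 0.12 without TAC+JP2NT replicate 3, in place of -1.08, and -1.85 to 0.12 over the libraries left out. For each of these the cause was not tested, beyond the fewer libraries or genes the alternative leaves.

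All-gene counts moved over 1.5 times in the vector comparison in TAC hearts (812; 158 to 1417, the highest count with 226 higher and 1191 lower with the values as deposited), in the interaction (10; 0 to 171) and in TAC+JP2NT against Sham+JP2NT without Sham+JP2NT replicate 3 (1870, in place of 4221). Over all genes, libraries with the same replicate number correlated at -0.171 to 0.076 in 19 pairs, so the numbers were not taken to pair them. Over the immediate early genes, the TAC+JP2NT and TAC+GFP libraries correlated at 0.504, 0.556, 0.677 and -0.083 for replicates 1 to 4. With a replicate block 18 genes were called in TAC+JP2NT against Sham+JP2NT, 22 in TAC+GFP against Sham+GFP, 5 in TAC+JP2NT against TAC+GFP, 0 in the sham comparison and 1 in the interaction. Depth limits genes with low values, such as Fosl1 and Dusp2.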
